A study of Mus musculus with 27 samples.

Results

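The comparison set 3 libraries of picked retinal ganglion cells from eyes with Ptpn2 knockout (KO) against 3 from wild-type (WT) eyes, both given interferon gamma (IFNγ). The members are every named gene in these 6 of the series' 27 libraries, 55367 gene symbols in all, of which 19651 had at least 1 count in the 6 libraries and 13487 passed the filter on low counts. All mice carried a floxed Ptpn2 gene and received, 2 weeks before optic nerve injury, an adeno-associated virus (AAV) in the eye that carried either Cre recombinase or green fluorescent protein; the labels give the genotype of each library but not its vector. All 6 eyes had IFNγ injected directly after the injury, and the cells were collected 3 days after it; 6 more libraries, 3 KO and 3 WT, came from injured eyes injected with buffer (PBS). Polyadenylated RNA was captured with oligo-dT and amplified by the Smart-seq2 protocol, which copies whole transcripts of very small samples. The promoter that drives Cre, the share of cells with a deletion, the number of cells per library and whether replicates are separate animals are not stated in the labels, so each p-value measures only the spread between libraries.

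Interferon gamma binds a cell surface receptor of the subunits Ifngr1 and Ifngr2, whose kinases Jak1 and Jak2 phosphorylate STAT transcription factors. STAT dimers bind GAS elements in the promoters of response genes, whereas type I interferons act mainly through a complex with Stat2 and Irf9 that binds ISRE elements. Ptpn2 is a tyrosine phosphatase that removes phosphate from JAK and STAT proteins, and the comparison asks how its loss bears on the transcriptome of injured ganglion cells exposed to IFNγ.

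The marker genes of the comparison were Igtp, Ifit2 and B2m. Igtp encodes Irgm3, an immunity-related GTPase that acts on vacuoles of intracellular pathogens, Ifit2 a protein that binds viral RNA, and B2m the light chain of MHC class I molecules. Their RefSeq promoter windows, 250 bases before to 50 bases after the start of transcription, are shown because they carry the start sites of the 3 genes whose levels open the results. They were read on the plus strand of GRCm38.p6, from chr11:58199306-58199605 for Igtp, chr19:34550444-34550743 for Ifit2 and chr2:122147437-122147736 for B2m. Capitals mark matches to TTCNNNGAA (the GAS motif, which reads the same on both strands) or GAAANNGAAA (a core of the ISRE motif, searched on both strands).
Igtp: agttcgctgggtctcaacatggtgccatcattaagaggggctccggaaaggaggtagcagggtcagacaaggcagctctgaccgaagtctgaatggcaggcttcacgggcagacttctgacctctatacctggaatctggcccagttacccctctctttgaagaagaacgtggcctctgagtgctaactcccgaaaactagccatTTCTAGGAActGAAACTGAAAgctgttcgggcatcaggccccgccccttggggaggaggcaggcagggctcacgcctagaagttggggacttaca
Ifit2: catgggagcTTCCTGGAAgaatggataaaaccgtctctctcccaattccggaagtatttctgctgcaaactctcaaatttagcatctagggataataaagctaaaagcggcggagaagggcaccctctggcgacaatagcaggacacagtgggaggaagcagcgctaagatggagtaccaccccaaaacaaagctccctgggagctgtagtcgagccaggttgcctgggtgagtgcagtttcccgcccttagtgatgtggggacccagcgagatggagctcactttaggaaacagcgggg
B2m: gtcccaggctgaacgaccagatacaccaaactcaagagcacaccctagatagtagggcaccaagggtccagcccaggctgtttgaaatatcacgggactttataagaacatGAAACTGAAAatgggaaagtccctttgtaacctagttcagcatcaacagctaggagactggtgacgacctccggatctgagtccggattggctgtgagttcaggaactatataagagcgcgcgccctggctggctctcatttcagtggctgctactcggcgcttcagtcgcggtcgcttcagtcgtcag
The Igtp window held 1 match to each motif, beginning 45 and 34 bases before the start of transcription and not overlapping. The Ifit2 window held 1 GAS match and no ISRE match, and the window at a second Ifit2 start, chr19:34550838-34551137, held neither. The B2m window held 1 ISRE match, 139 bases before the start, and no GAS match. Of 32851 mouse promoter windows of this length, 8.3% held a GAS match and 3.44% an ISRE match. These matches describe letters in the window and say nothing about binding.

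The 6 libraries held 14153159 to 15557546 counts with KO and IFNγ and 15358575 to 16517188 counts with WT and IFNγ, with 13205 to 13465 and 12502 to 13838 detected genes. A single ribosomal sequence entry took 23.5% to 31.8% of counts with KO and IFNγ and 22.6% to 35.7% with WT and IFNγ, and mitochondrial genes took 2.41% to 3.71% and 2.66% to 2.96%. Over 5 such properties the two-sided exact permutation p-values were 0.2 to 1, where 0.1 is the smallest that 3 against 3 libraries allow. Libraries of one group resembled each other little more than libraries of different groups: Spearman's rank correlation over genes was 0.729 to 0.754 within KO with IFNγ, 0.780 to 0.795 within WT with IFNγ and 0.726 to 0.774 between them, as a description of libraries that share genes and chemistry. One library outside the comparison stood apart. KO with PBS, replicate 2, held microglial transcripts, with Cx3cr1 at 598 CPM, C1qa at 529 CPM and Ctss at 1493 CPM, where the other 11 retinal libraries had at most 0.706, 0.164 and 2.21 CPM. It enters the shared estimate of spread and every value for PBS. List counts of the interaction are given with and without it, whereas interactions of single genes in the main fit include it. Levels are CPM, counts scaled to a common library size after TMM normalization. A total of 3 counts per library, or 0.174 to 0.265 CPM in the 6 libraries, were taken as the floor of detection, and intervals and floors cover counting error only.

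Ptpn2 lies on the minus strand of chromosome 18, from 67665511 to 67724595 in GRCm38. It stood at 15.5, 0 and 23.9 CPM in KO with IFNγ and at 0, 9.88 and 14.1 CPM in WT with IFNγ. With PBS it stood at 10.1, 8.07 and 7.71 CPM in KO and 10.5, 7.26 and 3.39 CPM in WT. The groups overlapped with either injection, and the fitted log2 fold change with IFNγ was 0.72 ± 1.90 (SE; edgeR adjusted p = 1). The labels do not say which exons the lox sites flank, and the counts sum the whole gene, so this value does not check the deletion and every direction below rests on the labels.

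With IFNγ, most interferon-inducible GTPases and antiviral genes had a fitted level above WT in KO libraries, but no gene passed the test. edgeR's quasi-likelihood test over all 13487 genes, fitted on the 12 retinal libraries, called 0 of them (percent called 0) at a Benjamini-Hochberg adjusted p under 0.05, with a smallest adjusted p of 0.856. At an unadjusted p under 0.05 there were 668 genes (4.95%), 369 higher (2.74%) and 299 lower (2.22%). Between the 3 KO and the 3 WT libraries, 828 genes (6.14%) did not overlap with KO higher and 831 (6.16%) with KO lower. The median log2 fold change of all genes tested was 0.05, the median size of a change 0.713 and the median SE 1.46, so a typical gene's SE exceeded its change. The biological coefficient of variation was 1.27, and 4800 of the genes tested had 0 counts in at least 1 of the 6 libraries.

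Other tools gave other counts for the same contrast. DESeq2 called 224 of the 12792 genes it gave an adjusted p (1.75%), 141 higher (1.1%) and 83 lower (0.649%), and 163 of the 224 had 0 counts in all 3 libraries of a group. In 105 of the 224 the KO and WT libraries did not overlap, and in the rest they did. limma-voom with quality weights called 5 genes (0.0371%), all higher, of which 2 were among the calls of DESeq2. Scaling by library totals alone moved the median of all genes to 0.17 and the split at an unadjusted p under 0.05 to 442 higher and 225 lower, against 369 and 299 with TMM, while edgeR still called 0.

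**Figure D1:**
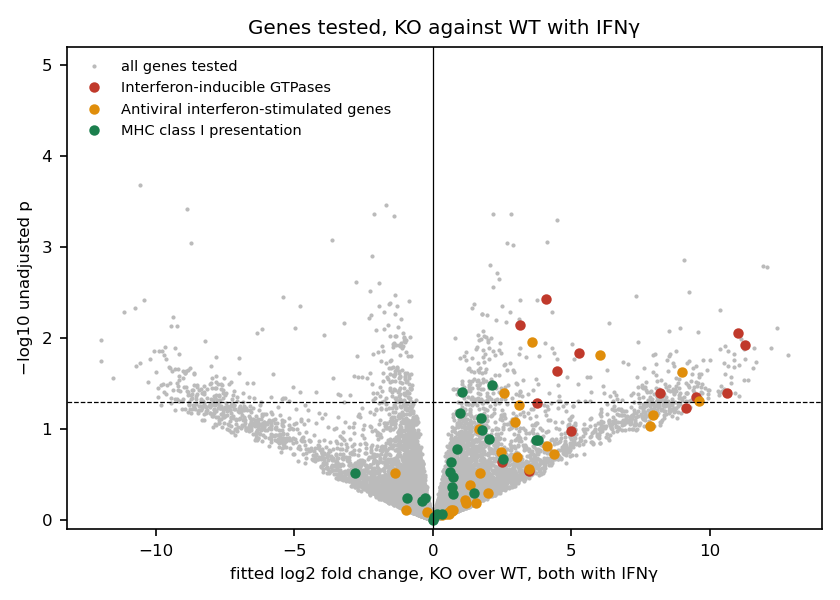
Fitted log2 fold change (KO over WT, both with IFNγ) against −log10 of the unadjusted p for the genes tested; the dashed line marks an unadjusted p of 0.05, and 3 gene lists are coloured. All 14 tested GTPases lie right of 0, which was fixed for the 6 at 0 counts in all WT libraries with IFNγ. No gene reached an adjusted p under 0.05.

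The 3 markers differed in how far their groups separated. Igtp stood at 161, 147 and 222 CPM in KO with IFNγ and at 0, 3.97 and 19.8 CPM in WT with IFNγ. Every KO library lay above every WT library, with a log2 fold change of 4.48 ± 1.75 (edgeR adjusted p = 0.913). Ifit2 stood at 1524, 377 and 116 CPM in KO with IFNγ and at 29.5, 74.5 and 65.0 CPM in WT with IFNγ. Here too the groups did not overlap, but KO replicate 1 was far above the other KO libraries, and the log2 fold change was 3.58 ± 1.22 (edgeR adjusted p = 0.913), or 2.13 without that library. B2m stood at 5611, 4087 and 1873 CPM in KO with IFNγ and at 1591, 3472 and 1310 CPM in WT with IFNγ. Its groups overlapped, with a log2 fold change of 0.86 ± 0.59 (edgeR adjusted p = 1). Igtp shares exon bases with its neighbour Irgm2 on chromosome 11, so reads there cannot be told apart without knowing how they were counted.

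**Figure D2:**
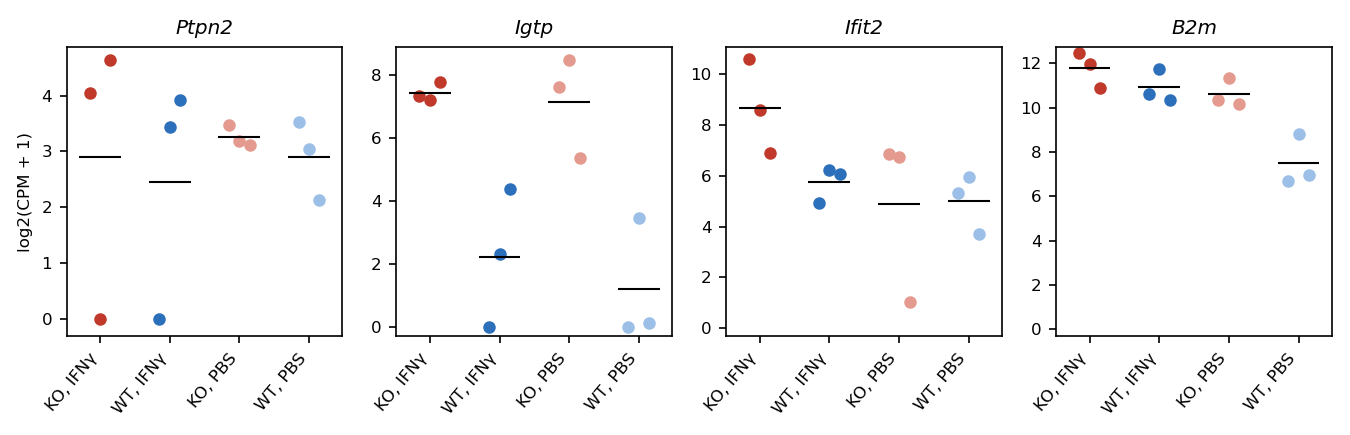
Level of Ptpn2, Igtp, Ifit2 and B2m as log2(CPM + 1) in each of the 12 retinal libraries (points), with the mean of the 3 log values of a group (bar). Igtp lies above 100 CPM in all KO libraries with IFNγ and below 20 CPM in all WT libraries with IFNγ, whereas the Ptpn2 and B2m groups overlap.

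The interferon-inducible GTPases gave the most uniform pattern. Of the 20 members present among the deposited genes 14 passed the filter. All 14 had a log2 fold change above 0, where 52% of all genes tested did. For 6 of the 14 this sign was fixed, since all WT libraries with IFNγ had 0 counts. An unadjusted p under 0.05 with KO higher was found for 9, against 2.74% of all genes. In 10 of the 14 every KO library lay above every WT library, against 6.14% of all genes. Their median log2 fold change was 5.14, or 4.48 with the 6 members at 0 counts in all WT libraries set to their bound, beside 0.05 over all genes. None was called by edgeR, whereas DESeq2 called 7 of the 13 it tested, all higher, against 1.1% of all genes it tested. Of those 7, Gbp9 and Gm12250 overlapped between the groups. The values of the list rest on few counts in WT: the median was 9.18 without WT replicate 2, and 4 members had an unadjusted p under 0.05 without KO replicate 1. Over all genes 6.16% did not overlap with KO lower, and the same shares apply to the list counts that follow.

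Among the immunity-related GTPases, Irgm1, which guards membranes against the other GTPases of its family, stood at 102, 67.8 and 57.6 CPM in KO with IFNγ and at 5.64, 17.7 and 2.23 CPM in WT with IFNγ. The lowest KO library was above the highest WT library, and the log2 fold change was 3.15 ± 1.0 (edgeR adjusted p = 0.913; DESeq2 adjusted p = 0.0405). Irgm2, of the same family, stood at 54.1, 13.1 and 10.9 CPM in KO with IFNγ and at 0, 2.03 and 0 CPM in WT with IFNγ. Its groups did not overlap either, at 5.28 ± 1.85 (edgeR adjusted p = 0.913; DESeq2 adjusted p = 0.0441). Gm4951, listed with these GTPases, had 40.5, 4.89 and 5.63 CPM in KO with IFNγ and 0 counts in all WT libraries with IFNγ. Tgtp1, a T-cell-specific GTPase by name, had 14.2, 0.0643 and 3.63 CPM in KO with IFNγ, also against 0 counts in WT. KO replicate 2 of Tgtp1 was under the floor of detection, so its separation from 0 rests on 2 libraries. Iigp1, which attacks the vacuoles of parasites, had 38.2, 0 and 0.969 CPM in KO with IFNγ and 0 counts in WT, and its groups overlapped at 0.

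The guanylate-binding proteins, which coat pathogen vacuoles and assist inflammasomes, showed the same order. Gbp6 stood at 122, 19.6 and 65.5 CPM in KO with IFNγ and at 0.930, 7.68 and 3.66 CPM in WT with IFNγ. It had the smallest p of the list, with a log2 fold change of 4.08 ± 1.13 (edgeR adjusted p = 0.913; DESeq2 adjusted p = 0.00772). Gbp2 stood at 56.7, 21.6 and 8.96 CPM in KO with IFNγ and at 0, 2.74 and 0 CPM in WT with IFNγ. Gbp3 stood at 22.6, 28.8 and 15.7 CPM in KO with IFNγ and at 0.116, 4.41 and 0.434 CPM in WT with IFNγ. Neither gene's groups overlapped, but neither had an unadjusted p under 0.05. Gbp7 separated by little, at 77.7, 29.8 and 15.9 CPM in KO with IFNγ against 0, 6.44 and 15.4 CPM in WT with IFNγ. Gbp9 was carried by 1 library, at 61.5, 0.0643 and 0 CPM in KO with IFNγ against 0 counts in WT. These genes are close paralogs, and Gbp4, Gbp8 and Gbp9 share exon bases, so single members are less certain than the list.

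**Figure D3:**
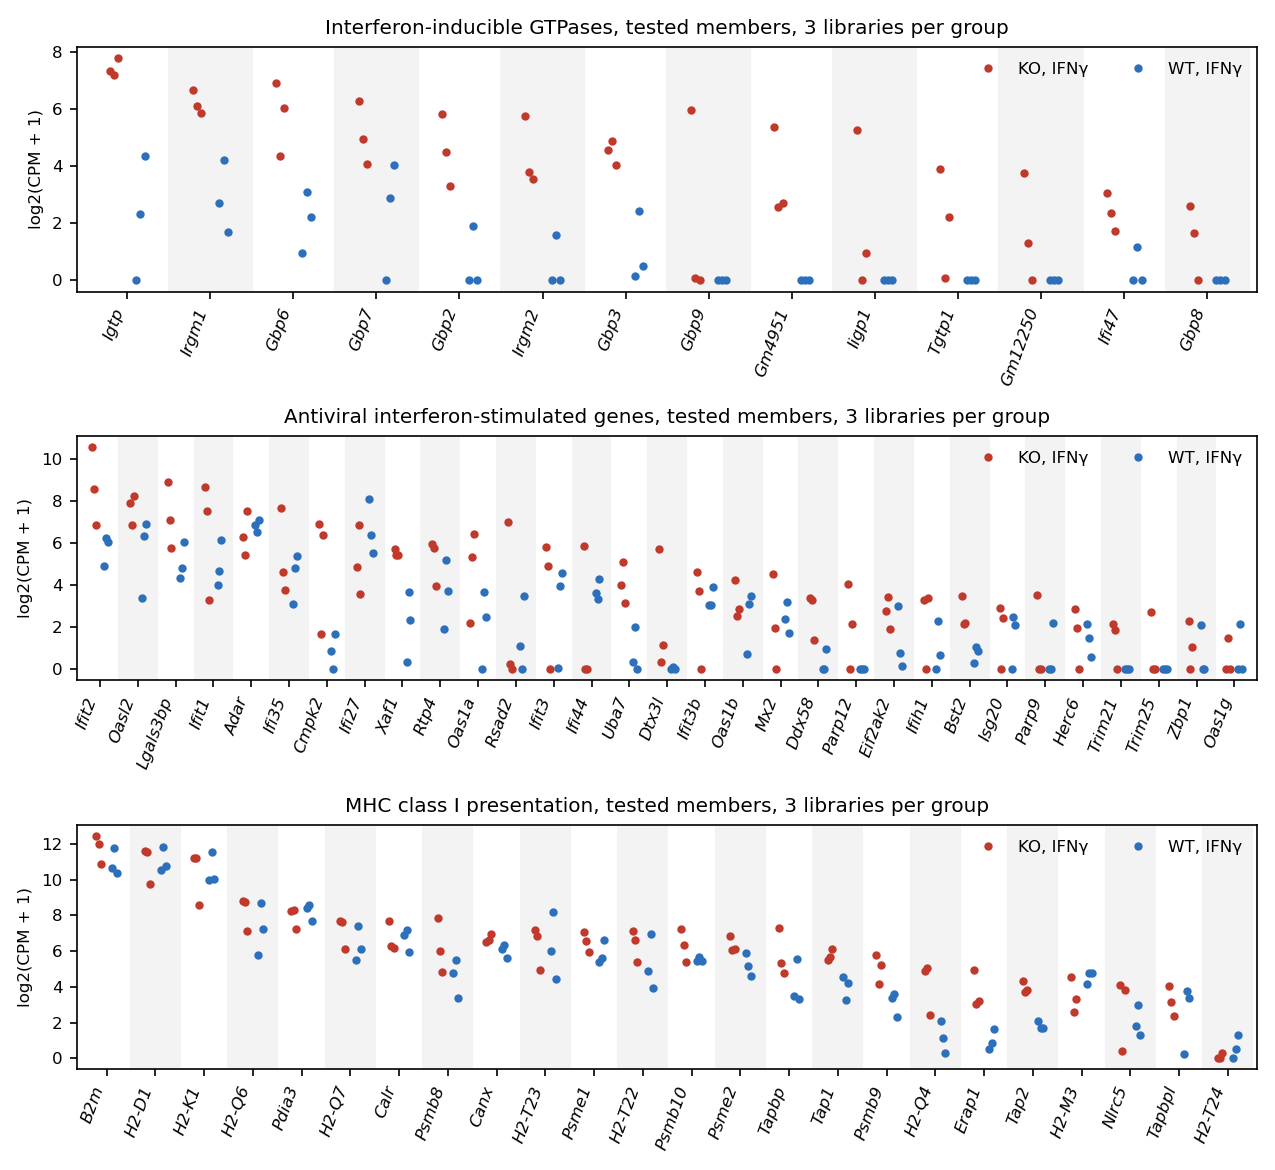
Levels as log2(CPM + 1) of the tested members of 3 lists, ordered by mean level in KO with IFNγ, with 3 KO libraries (left) and 3 WT libraries (right) per gene. In 10 of 14 GTPases all KO points lie above all WT points, against 7 of 31 antiviral and 7 of 24 MHC class I genes.

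Upstream of these genes, the receptors and kinases of the pathway separated little. Of 12 tested receptors and kinases 9 had a log2 fold change above 0, 1 had an unadjusted p under 0.05, and the median was 0.82. Ifngr2, a subunit of the IFNγ receptor, stood at 140, 40.3 and 84.7 CPM in KO with IFNγ and at 55.3, 94.0 and 32.0 CPM in WT with IFNγ. Jak1 stood at 164, 50.8 and 42.0 CPM in KO with IFNγ and at 36.3, 43.5 and 52.5 CPM in WT with IFNγ. Both pairs of groups overlapped, as did those of Lifr, a receptor subunit for leukaemia inhibitory factor, at 71.7, 48.7 and 11.9 CPM with KO and 53.1, 79.8 and 4.71 CPM with WT. Ifnar2, a subunit of the type I interferon receptor, was the single member without overlap, at 33.9, 34.2 and 15.7 CPM in KO with IFNγ against 11.7, 8.65 and 11.4 CPM in WT with IFNγ (log2 1.40 ± 0.99, edgeR adjusted p = 1).

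Of the STAT and IRF transcription factors, all 10 tested had a log2 fold change above 0, with a median of 0.90, and none had an unadjusted p under 0.05. Stat3, which carries cytokine signals that favour axon growth, stood at 114, 70.2 and 108 CPM in KO with IFNγ and at 12.1, 84.1 and 30.5 CPM in WT with IFNγ. Irf9 stood at 57.9, 101 and 64.2 CPM in KO with IFNγ and at 35.5, 63.4 and 73.3 CPM in WT with IFNγ, and Stat2 at 81.9, 10.7 and 38.6 CPM against 1.10, 6.80 and 52.3 CPM. Stat3, Irf9 and Stat2 overlapped between the groups.

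Among 16 tested negative regulators of the pathway 13 lay above 0, with a median of 0.57, and 2 did not overlap. Ptpn1, the phosphatase most like Ptpn2, stood at 69.0, 31.3 and 65.6 CPM in KO with IFNγ and at 4.59, 30.3 and 12 CPM in WT with IFNγ. Its lowest KO library lay just above its highest WT library, and the log2 fold change was 1.82 ± 0.85 (edgeR adjusted p = 0.913). Socs3, a feedback inhibitor of JAK kinases whose loss favours optic axon regeneration, stood at 4.58, 4.57 and 9.81 CPM in KO with IFNγ and at 0, 0.618 and 3.22 CPM in WT with IFNγ (2.30 ± 2.47, edgeR adjusted p = 1). Socs5, Cish and Ptpn11, the members with the highest levels, overlapped between the groups, with means of 121 ± 55.4, 66.5 ± 58.8 and 34.3 ± 9.62 CPM in KO with IFNγ against 149 ± 89.6, 62.3 ± 17.2 and 63.0 ± 24.7 CPM in WT with IFNγ (SD, n = 3 each).

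Antiviral genes were spread more widely than the GTPases. Of 31 tested 28 had a log2 fold change above 0 (52% of all genes) and 5 an unadjusted p under 0.05 with KO higher (2.74%). For 3 members all WT libraries with IFNγ had 0 counts, which fixed the sign. In 7 the groups did not overlap with KO higher (6.14%), in none with KO lower (6.16%), and the median was 1.70. edgeR called 0 and DESeq2 3 of 26, all higher (1.1% of all genes). Of these 3, Cmpk2 was apart, whereas Parp12 and Trim21 overlapped between the groups. Without KO replicate 1, 17 of 31 lay above 0, 1 had an unadjusted p under 0.05 and the median was 1.01. Those at an unadjusted p under 0.05 numbered 2 without WT replicate 1 and 3 without WT replicate 3. Oasl2, of the oligoadenylate synthetase family, stood at 243, 117 and 307 CPM in KO with IFNγ and at 9.54, 80.7 and 118 CPM in WT with IFNγ, so that its groups overlapped by 1 library. Lgals3bp, a secreted glycoprotein, stood at 475, 135 and 53.2 CPM in KO with IFNγ and at 19.1, 27.4 and 65.8 CPM in WT with IFNγ, with 1 KO library inside the WT range. Cmpk2, a mitochondrial nucleotide kinase, stood at 120, 2.25 and 82.5 CPM in KO with IFNγ and at 0.814, 0 and 2.23 CPM in WT with IFNγ. KO replicate 2 nearly met the highest WT library, and the log2 fold change was 6.05 ± 2.19 (edgeR adjusted p = 0.913). Xaf1, a partner of the apoptosis inhibitor Xiap, was the most even across KO libraries of the members without overlap, at 51.9, 42.8 and 42.5 CPM in KO with IFNγ against 0.291, 11.6 and 4.09 CPM in WT with IFNγ (3.10 ± 1.48, edgeR adjusted p = 0.913). Adar, an RNA editing enzyme, and Ifi27 lay the other way by their means, at 100 ± 72.1 and 51.2 ± 55.0 CPM in KO with IFNγ against 115 ± 21.4 and 134 ± 121 CPM in WT with IFNγ (SD, n = 3 each), with overlap.

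Of 24 tested genes of MHC class I presentation 19 had a log2 fold change above 0 (52% of all genes), with a median of 0.73. Of these genes 2 had an unadjusted p under 0.05 with KO higher (2.74%) and 7 did not overlap with KO higher (6.14%). H2-K1 and H2-D1, class I heavy chains at high level, overlapped. H2-K1 stood at 2412, 2342 and 388 CPM in KO with IFNγ and at 1030, 3048 and 1072 CPM in WT with IFNγ, and H2-D1 at 3149, 3051 and 868 CPM against 1472, 3603 and 1732 CPM. Reads of the H2 family are hard to tell apart between paralogs. Tap1, of the peptide transporter, stood at 45.3, 50.5 and 69.9 CPM in KO with IFNγ and at 22.8, 8.56 and 17.8 CPM in WT with IFNγ (1.75 ± 0.91, edgeR adjusted p = 0.913). Psmb9, an immunoproteasome subunit that shares exon bases with Tap1, stood at 54.9, 16.9 and 36.2 CPM in KO with IFNγ and at 9.30, 11.3 and 3.90 CPM in WT with IFNγ (2.14 ± 0.88, edgeR adjusted p = 0.913). Psme2, of the proteasome activator, stood at 115, 65.7 and 67.6 CPM in KO with IFNγ and at 59.4, 35 and 23.9 CPM in WT with IFNγ (1.07 ± 0.47, edgeR adjusted p = 0.913). No KO library of these 3 genes fell within the WT range. The other immunoproteasome subunits overlapped, Psmb8 at 235, 64.1 and 27.3 CPM in KO with IFNγ against 26.6, 44.5 and 9.23 CPM in WT with IFNγ and Psmb10 at 148, 79.6 and 41.3 CPM in KO with IFNγ against 42.3, 49.7 and 43.1 CPM in WT with IFNγ. The other members without overlap were Tap2, the partner of Tap1, H2-Q4, the trimming peptidase Erap1 and the chaperone Canx, at 2.55 ± 1.95, 3.8 ± 2.37, 3.74 ± 2.35 and 0.65 ± 0.52. KO replicate 3 had the lowest B2m, H2-K1 and H2-D1 of the KO libraries, and without it 12 members did not overlap. The 6.14% does not apply to that count, since fewer libraries separate more easily. Over all genes, 2856 to 3160 did not overlap in either direction without 1 compared library, against 1659 with all of them. The list median was 0.47 without KO replicate 1 and 1.31 without WT replicate 2, and no member had an unadjusted p under 0.05 without KO replicate 1 or without WT replicate 3.

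Class II genes and soluble signals were at low level. Of 11 class II genes 6 were tested, 5 of them above 0 with a median of 0.72. H2-Ab1, a class II chain, stood at 8.02, 10.9 and 5.69 CPM in KO with IFNγ and at 4.30, 0 and 1.98 CPM in WT with IFNγ, with no overlap but an edgeR unadjusted p of 0.361. H2-DMa, which loads class II molecules, averaged 19.6 ± 9.58 CPM in KO with IFNγ and 14.7 ± 9.97 CPM in WT with IFNγ, and Ifi30, a lysosomal reductase, 4.77 ± 4.35 and 0.389 ± 0.621 CPM (SD, n = 3 each). Of 25 chemokines, cytokines and checkpoint ligands 8 were tested, and 1 did not overlap. Cd274, which encodes the checkpoint ligand PD-L1, stood at 74.8, 63.8 and 24.9 CPM in KO with IFNγ and at 3.61, 10.1 and 23 CPM in WT with IFNγ, just apart, at 2.16 ± 1.52 (edgeR adjusted p = 1). Cx3cl1, the neuronal ligand of the microglial receptor Cx3cr1, lay the other way, at 32.6, 90.9 and 210 CPM in KO with IFNγ against 392.2, 127 and 341 CPM in WT with IFNγ, and it overlapped. Its unadjusted p was 0.0377 (edgeR, adjusted p = 0.913). Csf1, a growth factor of macrophages, averaged 14.8 ± 13.1 CPM in KO with IFNγ and 6.16 ± 4.14 CPM in WT with IFNγ.

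Of 5 tested cGAS-STING genes and 4 tested complement genes none separated, with medians of 0.44 and 0.27. In the DNA-sensing list Irf3 averaged 13.4 ± 8.25 CPM in KO with IFNγ and 9.88 ± 9.83 CPM in WT with IFNγ, Ifi204 16 ± 18.6 and 3.35 ± 5.81 CPM, and Traf3 6.56 ± 9.19 and 6.87 ± 11.4 CPM. Cgas, the DNA sensor, had counts in 1 of the 6 libraries. Cd59a, a complement inhibitor, averaged 103 ± 25.3 CPM in KO with IFNγ and 200 ± 76.3 CPM in WT with IFNγ, and Serping1, another inhibitor, 56.5 ± 28.6 and 20 ± 25.3 CPM (SD, n = 3 each). C2 had 1.96, 0 and 3.27 CPM in KO with IFNγ and 0 counts in WT with IFNγ.

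Genes that injured neurons induce lay on both sides of 0. Of 27 tested regeneration-associated genes 15 lay above 0 and 12 below, with a median of 0.30, and 2 did not overlap with KO higher and 4 with KO lower, where all genes gave 6.14% and 6.16%. Atf3, an injury-induced transcription factor, stood at 1155, 1119 and 943 CPM in KO with IFNγ and at 1629, 1799 and 2300 CPM in WT with IFNγ. Each KO library lay below each WT library, at -0.83 ± 0.41 (edgeR adjusted p = 0.913). Sprr1a, a growth-associated protein of injured axons, stood at 211, 97.5 and 0.605 CPM in KO with IFNγ and at 2521, 5795 and 403 CPM in WT with IFNγ. The libraries of each group differed from each other by far more than those of Atf3, and the log2 fold change was -4.82 ± 2.79 (edgeR adjusted p = 0.943). Tnfrsf12a, the receptor of Tweak, stood at 110, 242 and 383 CPM in KO with IFNγ and at 590, 580 and 419 CPM in WT with IFNγ (-1.11 ± 0.39, edgeR adjusted p = 0.913). Klf7, a factor that promotes axon growth, stood at 25.3, 58.9 and 45.8 CPM in KO with IFNγ and at 138, 138 and 74.1 CPM in WT with IFNγ (-1.43 ± 0.55, edgeR adjusted p = 0.913). Its relative Klf6 was apart in the other direction, at 259, 266 and 186 CPM in KO with IFNγ and 163, 140 and 164 CPM in WT with IFNγ (0.60 ± 0.39, edgeR adjusted p = 0.995). Ecel1, Gap43 and Stmn2, the members with the highest levels, averaged 2089 ± 962, 1562 ± 742 and 1628 ± 1415 CPM in KO with IFNγ and 4249 ± 2186, 2595 ± 1299 and 1905 ± 772 CPM in WT with IFNγ (SD, n = 3 each), all with overlap.

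Of 25 tested regulators of optic nerve regeneration 12 lay above 0, with a median of -0.05. Rheb, the small GTPase that activates mTOR, stood at 376, 391 and 571 CPM in KO with IFNγ and at 934, 650 and 699 CPM in WT with IFNγ. Its groups did not overlap, at -0.77 ± 0.31 (edgeR adjusted p = 0.913). Rhoa, which restrains growth cones, was also apart but by less, at 82.5, 68.1 and 70.1 CPM in KO with IFNγ against 94.8, 94.7 and 97.2 CPM in WT with IFNγ (-0.38 ± 0.47, edgeR adjusted p = 1). Ntrk2, the receptor of BDNF, lay higher, at 68.7, 65.9 and 45.8 CPM in KO with IFNγ against 10, 37.2 and 32.8 CPM in WT with IFNγ (1.17 ± 0.77, edgeR adjusted p = 1). Spp1, which encodes osteopontin, was uneven in both groups, at 0.818, 38.3 and 0.242 CPM with KO and 890, 280 and 0 CPM with WT, and Tsc2, an inhibitor of mTOR, averaged 108 ± 61.5 CPM in KO with IFNγ and 76.7 ± 62.2 CPM in WT with IFNγ.

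Among 27 tested genes of neuronal death and stress 16 lay above 0, with a median of 0.14. In 3 the groups did not overlap with KO lower, where 6.16% of all genes did, and in none with KO higher (6.14%). Atf4, the transcription factor of the integrated stress response, stood at 93.9, 195 and 506 CPM in KO with IFNγ and at 571, 676 and 772 CPM in WT with IFNγ. KO replicate 3 came nearest to the WT libraries, and the log2 fold change was -1.34 ± 0.52 (edgeR adjusted p = 0.913). Asns, asparagine synthetase and a target of Atf4, stood at 389, 713 and 594 CPM in KO with IFNγ and at 1041, 1089 and 898 CPM in WT with IFNγ (-0.84 ± 0.54, edgeR adjusted p = 1). Bcl2l11, which encodes the death-promoting protein Bim, stood at 2.29, 0.193 and 11.1 CPM in KO with IFNγ and at 12, 59.6 and 17.3 CPM in WT with IFNγ (-2.70 ± 1.09, edgeR adjusted p = 0.913). Ddit3, the stress factor Chop, overlapped, at 202, 771 and 1798 CPM in KO with IFNγ against 2023, 994 and 2241 CPM in WT with IFNγ. Of 12 tested immediate early genes 9 lay above 0 and 1 did not overlap, the AP-1 member Junb, at 44.8, 113 and 73.1 CPM in KO with IFNγ against 12.7, 44.7 and 17.3 CPM in WT with IFNγ (1.63 ± 0.67, edgeR adjusted p = 0.913). Egr1, Dusp1 and Jun averaged 257 ± 185, 214 ± 102 and 203 ± 62.1 CPM in KO with IFNγ and 437 ± 202, 307 ± 166 and 203 ± 121 CPM in WT with IFNγ (SD, n = 3 each), with overlap.

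Ganglion cell markers were present in all 6 libraries, and none separated fully by group. Of 23 tested markers 15 lay above 0, with a median of 0.13, and none was without overlap. Their log2 fold changes ran from -8.88 to 5.86. At an unadjusted p under 0.05 there were 1 higher and 2 lower, against 2.74% and 2.22% of all genes. Sncg, a synuclein of ganglion cells, stood at 3095, 3666 and 1725 CPM in KO with IFNγ and at 2302, 2691 and 1657 CPM in WT with IFNγ. Rbpms, an RNA-binding protein that defines ganglion cells, stood at 199, 277 and 131 CPM in KO with IFNγ and at 104, 93.8 and 156 CPM in WT with IFNγ. Uchl1 averaged 2339 ± 671 CPM in KO with IFNγ and 3348 ± 1315 CPM in WT with IFNγ. Markers of subtypes were uneven, as in Opn4, the photopigment of intrinsically photosensitive ganglion cells, at 1.64, 159 and 0 CPM with KO and 0, 0 and 2.73 CPM with WT, and Pvalb, a calcium buffer, at 560, 813 and 0.424 CPM with KO and 66.4, 18.7 and 73.9 CPM with WT. In pooled cells a lower share of a cell type and less RNA per cell cannot be told apart.

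Calb2, which encodes calretinin, a calcium-binding protein of many amacrine cells and some ganglion cells, had one of the smallest p-values of the comparison. It stood at 128, 188 and 196 CPM in KO with IFNγ and at 540, 392.1 and 1276 CPM in WT with IFNγ. The groups lay apart, also with PBS, where it stood at 144, 180 and 338 CPM in KO and 442, 391 and 415 CPM in WT, and the log2 fold change with IFNγ was -2.11 ± 0.46 (edgeR adjusted p = 0.856; DESeq2 adjusted p = 0.000689). All 6 tested amacrine and horizontal cell markers, Calb2 among them, lay below 0, with a median of -1.55. For 1 of the 6 all KO libraries with IFNγ had 0 counts, which fixed the sign. An unadjusted p under 0.05 was found for 2 (2.22% of all genes with KO lower), and only Calb2 did not overlap. DESeq2 called 2 of the 5 it gave an adjusted p, both lower (0.649% of all genes). The second was Calb1 (DESeq2 adjusted p = 3.7e-07), whose groups overlapped. The summed level of the list was 149, 260 and 258 CPM in KO with IFNγ against 584, 507 and 1500 CPM in WT with IFNγ. Calb2 made up most of that sum in each library, so the sum largely repeats the Calb2 difference. The defining amacrine gene Gad1 was at or near 0 in all 6 libraries, at most 0.0605 CPM with KO and 1.98 CPM with WT, and Gad2 reached 2.70 CPM with KO and 23.7 CPM in 1 WT library. Pax6 averaged 25.7 ± 11.8 CPM in KO with IFNγ and 50.8 ± 44.2 CPM in WT with IFNγ, and Slc6a9, a glycine transporter, 15.8 ± 13.8 and 18.9 ± 29.3 CPM (SD, n = 3 each). The part of other cell types in the Calb2 difference was not tested.

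Several defining microglial genes were at or near 0 in the 6 libraries. Of 19 microglia and macrophage markers 6 were tested, 5 of them below 0, and the median was -1.97. In 2, Cd68 and Csf1r, the groups did not overlap with KO lower (6.16% of all genes), and in none with KO higher (6.14%). The summed level of the list was 38.1 to 65.6 CPM with KO and IFNγ and 93.9 to 177 CPM with WT and IFNγ. Cx3cr1, C1qa, Ptprc and Lyz2 stayed under 1 CPM in each library. Cd68, a lysosomal gene that neurons can also transcribe, stood at 0, 20.2 and 17.1 CPM in KO with IFNγ and at 47.6, 69.9 and 148 CPM in WT with IFNγ (-2.83 ± 1.13, edgeR adjusted p = 0.913), without overlap. It made up a large part of the summed level in each WT library, so the sums are not separate from Cd68. Csf1r, the receptor that microglia need, had 3 counts in all KO libraries with IFNγ against 168 in WT, a ratio of 0.018 (exact 95% counting interval 0.00368 to 0.0536).

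Rod transcripts were low but uneven. Of 13 tested rod markers 9 lay above 0 (52% of all genes), with a median of 0.85, and 3 did not overlap with KO higher (6.14%). Gnat1, rod transducin, stood at 18.0, 12.9 and 35.8 CPM in KO with IFNγ and at 0.0581, 1.5 and 0.620 CPM in WT with IFNγ (4.94 ± 2.6, edgeR adjusted p = 0.913). Pde6g, the rod phosphodiesterase inhibitor, stood at 3.36, 7.40 and 5.69 CPM in KO with IFNγ and at 0, 0.353 and 0.310 CPM in WT with IFNγ (4.60 ± 2.13, edgeR adjusted p = 0.913). The summed rod markers were 366 to 411 CPM with KO against 274 to 550 CPM with WT. The third rod gene without overlap, the factor Nrl, had 1.06, 0.0643 and 5.15 CPM in KO with IFNγ and 0 counts in WT. Vim, a filament of glia, was the single Müller glia and astrocyte marker of 12 without overlap, at 30.3, 48.2 and 30.8 CPM in KO with IFNγ against 13.8, 13.5 and 4.71 CPM in WT with IFNγ (1.77 ± 0.83, edgeR adjusted p = 0.913), while Glul, Clu and Dbi overlapped.

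The summed bipolar markers did not overlap, at 315, 262 and 311 CPM in KO with IFNγ and 119, 193 and 259 CPM in WT with IFNγ, while each of the 5 tested lay above 0 with overlap. The summed endothelial, pericyte and pigment epithelium markers did not overlap either, at 9.49, 15.3 and 14.7 CPM in KO with IFNγ and 23.1, 20.7 and 25.3 CPM in WT with IFNγ. Of these 3 were tested, and Egfl7, an endothelial secreted factor that other cells also make, did not overlap, at 9.41, 7.46 and 12.3 CPM with KO against 18.5, 15.5 and 16.4 CPM with WT. Egfl7 thus made up most of the sum in each WT library. The summed cone, T cell and neutrophil, and red blood cell lists stayed under 15 CPM in each of the 6 libraries. The 13 mitochondrially encoded genes had a median of -0.07, all with overlap.

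**Figure D4:**
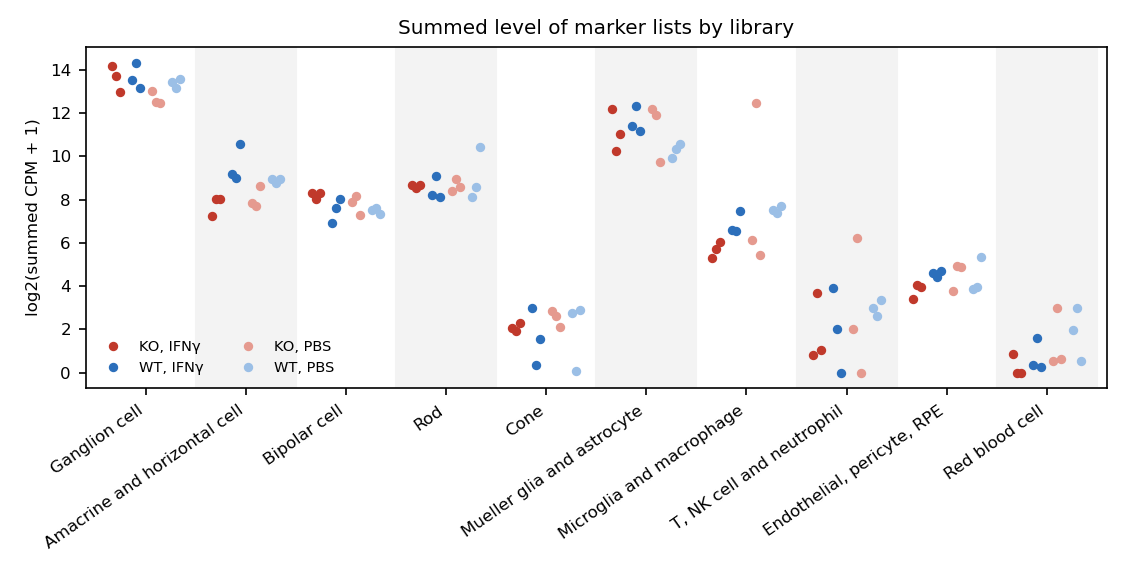
Summed level of each marker list as log2(summed CPM + 1) in the 12 retinal libraries, with KO left of WT for each injection. Among KO and WT libraries with IFNγ the amacrine, microglial and endothelial sums are lower in KO, at 149 to 260 against 507 to 1500 CPM, 38.1 to 65.6 against 93.9 to 177 CPM and 9.49 to 15.3 against 20.7 to 25.3 CPM, the bipolar sum is higher in KO, at 262 to 315 against 119 to 259 CPM, and 1 KO library with PBS stands alone in the microglial list. With IFNγ, Calb2 made up most of each amacrine sum. Cd68 made up a large part of each WT microglial sum and Egfl7 most of each WT endothelial sum. These 3 lower sums are therefore not separate from single genes.

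The genes with the smallest p-values were mostly not interferon genes. Named here are 10 in each direction with the smallest p among those with a mean of at least 20 CPM and 3 counts in each library of the higher group. Predicted, pseudogene and mitochondrial symbols were left out. Nup43, lower in KO and below that mean, had the smallest p of all genes tested (edgeR unadjusted p = 0.000208). None of the 20 passed edgeR's adjusted threshold, with adjusted p = 0.856 or 0.913, and DESeq2 called all 20. Trp53bp1, a DNA damage response protein, stood at 154, 65.4 and 109 CPM in KO with IFNγ and at 15.7, 20.7 and 9.97 CPM in WT with IFNγ. The lowest KO library was above the highest WT library, at 2.82 ± 0.61 (edgeR adjusted p = 0.856). Enah, an actin regulator of growth cones, stood at 121, 80.1 and 84.9 CPM in KO with IFNγ and at 16.2, 29.0 and 18.3 CPM in WT with IFNγ (2.17 ± 0.47, edgeR adjusted p = 0.856). Efnb1, an ephrin of axon guidance, stood at 31.7, 11.1 and 179 CPM in KO with IFNγ and at 3.43, 3.53 and 3.04 CPM in WT with IFNγ. The WT libraries were nearly equal while KO replicate 3 stood high, at 4.47 ± 0.99 (edgeR adjusted p = 0.856). Camk2a, a calcium-dependent kinase of synapses, stood at 610, 380 and 235 CPM in KO with IFNγ and at 11.3, 86.4 and 68.0 CPM in WT with IFNγ (2.89 ± 0.69, edgeR adjusted p = 0.913). With PBS it stood at 298, 175 and 223 CPM in KO and 25.6, 8.96 and 7.67 CPM in WT, also without overlap. The others with KO higher included Zswim8, a ubiquitin ligase receptor, Man2b2, a lysosomal mannosidase, Flot2, a membrane scaffold, and Resp18, a protein of secretory granules. Their log2 fold changes were 2.69 ± 0.64, 2.08 ± 0.53, 2.33 ± 0.61 and 2.39 ± 0.64. Tmem98 and Xdh completed the 10. Both had 0 counts in all WT libraries with IFNγ, so only bounds are given, at least 154-fold and 168-fold higher in KO. Resp18 stood at 106, 440 and 46.7 CPM in KO with IFNγ and at 34.0, 33.6 and 45.2 CPM in WT with IFNγ, and its log2 fold change was 1.02 without KO replicate 2.

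With KO lower, Maged1, an adaptor of neurotrophin receptor signalling, stood at 483, 656 and 781 CPM in KO with IFNγ and at 1221, 2716 and 2185 CPM in WT with IFNγ. All KO libraries lay below all WT libraries, at -1.67 ± 0.35 (edgeR adjusted p = 0.856), and with PBS too, at 523, 359 and 380 CPM in KO and 994, 981 and 645 CPM in WT. Hspa5, the chaperone BiP of the endoplasmic reticulum, stood at 270, 231 and 516 CPM in KO with IFNγ and at 1493, 1041 and 1349 CPM in WT with IFNγ (-1.93 ± 0.52, edgeR adjusted p = 0.913). Rgs7bp, an anchor of G protein regulators in neurons, stood at 31.8, 28.8 and 8.05 CPM in KO with IFNγ and at 502, 272 and 90.4 CPM in WT with IFNγ (-3.65 ± 0.86, edgeR adjusted p = 0.913). In each of these genes the groups were apart. Ppa2, the mitochondrial pyrophosphatase, was the most even, at 16.4, 8.88 and 15.4 CPM in KO with IFNγ and 67.2, 62.5 and 57.0 CPM in WT with IFNγ (-2.20 ± 0.54, edgeR adjusted p = 0.913). Dusp5, a phosphatase that inactivates ERK, had 2 counts in all KO libraries with IFNγ against 1216 in WT, a ratio of 0.00166 (exact 95% counting interval 0.000201 to 0.00601). The others were Rpl5, a ribosomal protein gene with many pseudogene copies and therefore uncertain, Pkib, a kinase A inhibitor, Gle1, a factor of mRNA export, and Tex264, a receptor of reticulophagy, at -1.40 ± 0.31, -2.79 ± 0.75, -2.27 ± 0.63 and -1.38 ± 0.39.

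**Figure D5:**
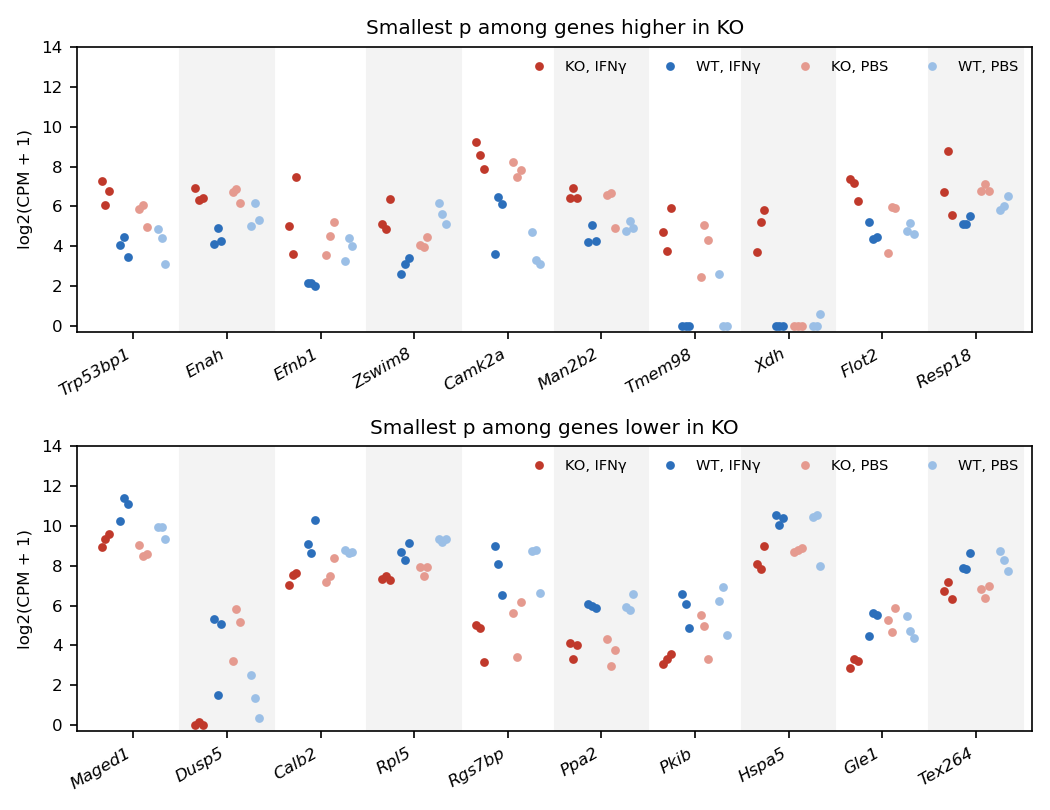
Levels as log2(CPM + 1) of the 10 genes with the smallest p in each direction, in all 12 retinal libraries, with KO left of WT for each injection. The KO and WT libraries with IFNγ do not overlap in any of the 20, which the choice by p favours, and none passed edgeR's adjusted threshold.

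Some genes had counts in one group only. In 63 genes every KO library with IFNγ had at least 3 counts and all WT libraries with IFNγ had 0, and in 57 genes the reverse held. Man1a, a mannosidase of the Golgi, was at least 284-fold higher in KO by its mean, but its libraries held 160, 16.9 and 0.363 CPM. Xdh, xanthine dehydrogenase, stood at 12.3, 36.8 and 55.8 CPM in KO with IFNγ and at least 168-fold higher than the WT floor, and it was among the 5 genes that limma-voom called (adjusted p = 0.0227). Tmem98 stood at 25.0, 12.6 and 58.7 CPM, Cutal at 2.86, 35.2 and 41.7 CPM and Cyp26b1, which degrades retinoic acid, at 57.1, 0.193 and 3.88 CPM in KO with IFNγ, at least 154-fold, 128-fold and 97.9-fold higher; the second KO library of Cyp26b1 sat at the floor. With KO at 0, Adamts3, a procollagen protease, had 77.2, 0.265 and 22.4 CPM in WT with IFNγ and was at least 161-fold lower in KO. Cdca4, Fam167a, Plekhg1 and Nup43, a nuclear pore subunit, were at least 90.2-fold, 69.1-fold, 60.4-fold and 59.9-fold lower in KO. Bounds are means over the group against 3 counts per WT or KO library. With a floor of 10 counts the numbers were 38 and 37 genes.

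Whether the genotype difference itself depended on IFNγ was tested as the interaction, the KO over WT change with IFNγ minus that with PBS. edgeR called 0 genes (percent called 0), with a smallest adjusted p of 0.105 and 721 genes (5.35%) at an unadjusted p under 0.05. Of the GTPases 11 of 14 had an interaction below 0, with a list median of -3.42. Among the 11, 5 were at an unadjusted p under 0.05 (2.36% of all genes in that direction). Without WT with IFNγ, replicate 2, the values were 10, -0.73 and 2. Interactions of members at 0 counts in a group depend on the prior count, and all list counts and medians of interactions include them. Gm4951 had 0 counts in WT with either injection, so the sign of its interaction, 2.32 ± 5768 (SE), carries no information. KO libraries stood high with PBS too. Igtp stood at 199, 356 and 40.3 CPM in KO with PBS and at 0, 9.90 and 0.0738 CPM in WT with PBS, apart as with IFNγ. Irgm1 stood at 60.7, 217 and 22.5 CPM in KO with PBS and at 1.82, 0.469 and 0.148 CPM in WT with PBS, and Gbp6 at 18.0, 83.0 and 9.72 CPM against 0 counts in WT. The highest of each is the library with microglial transcripts. Without that library 7 of 14 GTPase interactions lay below 0, 2 at an unadjusted p under 0.05, and their median was 0.23, a change of sign, whereas the KO over WT median with IFNγ was 5.13. Antiviral genes had 20 of 31 interactions below 0 with a median of -0.72, and 11 of 31 with a median of 0.55 without that library. Leaving out any other library gave 19 to 25 below 0 and medians of -3.44, without WT with PBS, replicate 3, to -0.59, without WT with PBS, replicate 2.

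Of 24 MHC class I genes 21 had an interaction below 0, with a median of -1.5 and 8 at an unadjusted p under 0.05 (2.36% of all genes in that direction, and 2.99% in the other), against 18, -1.43 and 4 without KO with PBS, replicate 2. The values were 19, -0.71 and 3 without WT with IFNγ, replicate 2. Those at an unadjusted p under 0.05 numbered 5 without WT with PBS, replicate 1, and 4 without KO with IFNγ, replicate 3. In 13 of the 24 every KO library with PBS lay above every WT library with PBS, where 5.12% of all genes did and 7.1% lay the other way. B2m stood at 1317, 2590 and 1136 CPM in KO with PBS and at 102, 446 and 125 CPM in WT with PBS. Those groups were apart while the groups with IFNγ overlapped, and the interaction was -2.04 ± 0.84 (edgeR adjusted p = 0.868). H2-K1 stood at 999, 1061 and 635 CPM in KO with PBS and at 87.4, 212 and 100 CPM in WT with PBS. Psmb9, at 21.5, 47.4 and 19.0 CPM in KO with PBS and 0 counts in WT with PBS, had the third smallest interaction p (edgeR adjusted p = 0.249), after Heg1, a receptor named for the zebrafish mutant heart of glass, and Rab7b, a small GTPase of late endosomes. Heg1 overlapped with IFNγ, at 20.6, 41.0 and 18.6 CPM in KO and 44.0, 15.6 and 5.27 CPM in WT, and with PBS had 0 counts in KO against 33.2, 25.6 and 77.2 CPM in WT (edgeR adjusted p = 0.105).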

How the data were processed

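Picked retinal ganglion cells gave 12 libraries, of which 6 form the comparison. The deposited table holds raw counts of reads per gene symbol, 1 column per library. The submitters' processing notes name Trim Galore, STAR and the mouse builds GRCm38 and mm10. They give no versions, and neither the counting program, its annotation nor its strand setting is recorded there, so counts of overlapping genes are uncertain. The unnamed closing line repeats the total of each library, 50% of what the file sums to, and was left out.

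Counts were fitted with edgeR 4.0.16 in R 4.3.3: filterByExpr by group (minimum count 10, minimum total 15), TMM, and a robust quasi-likelihood fit over the 4 retinal groups with 8 residual degrees of freedom, adjusted by Benjamini-Hochberg over all genes tested. The SE is the log2 fold change divided by the square root of F. Fitted values use a prior count of 0.125. Genes at 0 in a group get a bound from 3 counts per library. The difference between groups of single values used a two-sided exact permutation test.

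The members and the 26 gene lists were chosen with earlier results of these data known. Named genes are Ptpn2 and the 3 markers, the 10 smallest p-values each way with a mean of at least 20 CPM and 3 counts in each library of the higher group, the 3 list members with the highest mean where none was called, the 3 smallest interaction p-values and the 5 highest genes present in one group only, without predicted, pseudogene and mitochondrial symbols; other list members were named after their values were seen, mostly because their groups did not overlap. Promoters are RefSeq windows (GRCm38.p6), and gene positions are from GENCODE vM21. Alternatives were DESeq2 size factors, library totals, omission of the ribosomal entry, every gene without the filter, limma-voom (limma 3.58.1), DESeq2 1.42.0, a fit of only 6 libraries, the replicate number as a block, detected genes as a covariate, a floor of 10 counts and leaving out each library in turn. List counts under these settings were added after the data were seen.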

Additional observations from a re-analysis of the deposited data

Results flagged for a closer look

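In 4 of the genes named here the KO and WT libraries lay apart with IFNγ and apart in the opposite direction with PBS. None of the 4 interactions passed edgeR's adjusted threshold in the main fit. Many of the named genes were picked by their p or separation with IFNγ, and the share over all genes was not counted. The number 4 therefore does not show how common such reversals are. Zswim8 stood at 34.0, 27.8 and 81.8 CPM in KO with IFNγ against 5.17, 7.59 and 9.54 CPM in WT with IFNγ, and at 15.7, 14.7 and 21.2 CPM in KO with PBS against 71.8, 47.4 and 34.3 CPM in WT with PBS (interaction 4.26, edgeR adjusted p = 0.549). Dusp5 stood at 0, 0.129 and 0 CPM in KO with IFNγ against 39.1, 1.85 and 32.3 CPM in WT with IFNγ, and at 8.40, 55.3 and 35.2 CPM in KO with PBS against 4.69, 1.58 and 0.295 CPM in WT with PBS (interaction -12.78, edgeR adjusted p = 0.306). Bcl2l11 was lower in all KO libraries with IFNγ and stood at 30, 34.2 and 61.6 CPM in KO with PBS against 21.0, 19.4 and 28.5 CPM in WT with PBS (interaction -3.57, edgeR adjusted p = 0.877). Rab7b had 0 counts in KO with IFNγ against 5.41, 2.82 and 2.17 CPM in WT with IFNγ, and stood at 17.6, 52.1 and 24.1 CPM in KO with PBS against 0, 0 and 0.0738 CPM in WT with PBS (interaction -18.62, edgeR adjusted p = 0.195). The values of Dusp5 and Rab7b depend on the prior count, since a group of each was at or near 0.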

How the results depend on the processing

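The count of 0 called genes held under both other scalings, without the ribosomal entry or the low count filter, with 6 libraries only and with the covariate. It also held without any one of 7 libraries, the 6 compared and KO with PBS, replicate 2. DESeq2 called 224 and limma-voom 5, and the cause was not tested. The interaction gave 4 calls without the filter, 329 by DESeq2, 1 by limma-voom (Rab7b) and 1 with the covariate (Oasl2), against 0 otherwise. Without any one of the same 7 libraries, 435 to 770 genes had an unadjusted p under 0.05. Without any one of the 6 compared, 2856 to 3160 did not overlap, since 2 against 3 libraries separate more easily. By library totals 966 lay higher and 516 lower without overlap, against 828 and 831. Non-overlapping members numbered 10 to 13 of the GTPases, 7 to 14 of the antiviral list (14 without KO with IFNγ, replicate 3) and 7 to 12 of MHC class I (11 without WT with IFNγ, replicate 2, and 12 without KO with IFNγ, replicate 3). A floor of 10 counts left 75 of 120 genes present in one group only. Ptpn2 turned to -0.38 by limma-voom and -0.045 without KO with IFNγ, replicate 3 (leaving out 1 library gave -0.045 to 1.41), and the Igtp interaction (-1.40) to 0.63 without WT with IFNγ, replicate 3 (leaving out 1 library gave -7.50 to 0.63). Same-numbered libraries of both groups shared little deviation (r = -0.019, -0.012 and 0.049, across genes), which does not settle whether the numbers mark pairs. The labels state no pairing, and the main fit used none. The fit with the replicate block called 0 genes and 0 interactions, with 500 genes at an unadjusted p under 0.05.

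Depth was similar in the 6 libraries, and a count of 0 in a library limits a level only to below 0.174 to 0.265 CPM. Of the genes tested 4800 had such a 0 in at least 1 library.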
